A study of Homo sapiens with 12 samples.

Results

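The 12 RNA-seq libraries of the series, 6 from each of 2 clones of the human fibrosarcoma line HT1080, were compared clone against clone. The label of the GFP clone is m6A-Tracer, GFP joined to a domain that recognises methylated adenine in DNA, and that of the VP16 clone is m6A-Tracer-VP16, the same tracer joined to the VP16 activation domain. Both clones were grown in 3 conditions. Uninduced cells were kept in doxycycline at 50 ng/ml for 4 days. Cells with the tracer induced had 3 days of doxycycline and then 24 h without it. Cells with the tracer and Dam-LaminB1 had that same withdrawal with 500 nM Shield1 added, a ligand that protects the Dam and lamin B1 fusion from degradation. All 12 libraries therefore come from cells that had been kept in doxycycline, and all come from lines built to carry the tracer and Dam-LaminB1. The titles of the libraries repeat 6 index sequences in 2 sets, and each set holds every clone and condition once. Every VP16 library was matched with the GFP library of its condition and index set, which gives 6 pairs with no library left over. Genes called in the fit over the pairs were set apart by whether all 6 pairs had one direction; counts of gene lists are of all calls, with the number of one direction in all 6 pairs where it is lower.

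Dam methylates the adenine of GATC, and its fusion to lamin B1 marks chromatin that touches the nuclear lamina. The tracer then makes this chromatin visible, and VP16, an activation domain of a herpesvirus protein, recruits the transcription machinery to wherever it is bound. A clone is grown from a single cell, so heritable features of that cell are shared by every library made from it. Each construct is represented by 1 clone, so effects of the founder cell, of the construct and of leaky tracer cannot be told apart, and the removal of doxycycline cannot be told apart from tracer expression.

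The libraries held 18774905 to 24827396 counted reads, and 17262 of 36502 genes passed the filter on low counts. The design text calls the second library of each group a biological replicate. The 2 induced GFP libraries of index set 1, tracer and tracer with Dam-LaminB1, stood apart at -62.9 and -71.2 on the first principal component (50.0% of the variance), while the other 10 lay between -9.23 and 30.7. In the 2 pairs that hold them, genes of the ATF4 and CHOP stress response had median log2 differences of -1.66 and -1.85 (VP16 minus GFP), against 0.04 to 0.34 in the other 4 pairs. Across 13750 genes, the log2 differences of these 2 pairs correlated with those of the others at r = 0.35 to 0.49, and the other 4 pairs correlated with each other at r = 0.75 to 0.84, where genes are not independent replicates. Of 26 fibroblast markers, VIM stood at 1745 CPM (counts scaled to a common library total) or more in every library and SPARC at 593 or more. COL1A1 lay between 9.67 and 22.3 CPM, and 6 of the 26 were under 1 CPM in every library of each clone. The sum of this list ran from 7430 to 8479 CPM in the VP16 clone and from 5156 to 7291 in the GFP clone. Of its 21 tested members, 6 were higher (4 in all 6 pairs) and 3 lower in the VP16 clone, or 28.6% and 14.3%. Over all genes tested these shares were 10.6% and 12.8%. Of 20 epithelial markers, CDH1 and EPCAM reached at most 0.651 and 0.245 CPM, but the sum of the list ran from 260.5 to 350 CPM in the VP16 clone and from 207 to 310.3 in the GFP clone, most of it KRT8 (98.8 to 252) and KRT18 (52.3 to 78.0), and 14 and 12 of the 20 were under 1 CPM in every library of the clone. Of the 10 tested, 1 was higher and 2 lower in the VP16 clone.

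The clones differed in many genes by small amounts and in a few by large ones. With the pair as a block, 1823 genes were higher (10.6% of those tested) and 2208 lower (12.8%) in the VP16 clone (edgeR quasi-likelihood test, adjusted p under 0.05). Of these, 1719 were higher in every pair (9.96%) and 2011 lower in every pair (11.6%), and 301 had a pair of the other sign. Their median difference was small, 0.45 on the log2 scale in absolute size, against 0.21 over all genes tested. A difference of at least 2-fold in each of the 6 pairs was seen in 236 genes (1.37%), of which 63 were higher and 173 lower in the VP16 clone. At 4-fold or more in every pair, 16 were higher and 39 lower. The 6 VP16 libraries did not overlap the 6 GFP libraries in 1842 genes (10.7%), among them 215 of the 236. Without the pair as a block, 1318 genes passed, 453 higher and 865 lower, and with the 2 outlying pairs left out 6535 did.

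Among the genes higher in the VP16 clone, GALR1, ZNF71, NOS1 and ONECUT3 had the largest differences by their smallest pair. GALR1, a receptor for the neuropeptide galanin, lay at 3.26, 6.24 and 6.91 CPM (lowest, median and highest of the 6 VP16 libraries) and at 0, 0 and 0.0814 CPM in the GFP clone. No GFP library came near the VP16 range: the 6 GFP libraries held 3 counts in all and the VP16 libraries 739, a ratio of 259.6 after allowing for depth (95% exact interval 88.5 to 1262, counting error only). NOS1, the neuronal nitric oxide synthase, had the largest level of this group, at 58.1, 77.1 and 92.3 CPM against 1.95, 3.36 and 5.86. Its log2 difference came to 4.47 ± 0.28 (SE from the edgeR F test over 6 pairs, edgeR adjusted p = 8.0e-05). Each SE in the text is the absolute log2 difference over the square root of F, with the spread moderated across genes. ZNF71, a zinc finger protein, stood at 3.10, 3.89 and 4.06 CPM against 0, 0.0644 and 0.163. ONECUT3, a homeodomain transcription factor, stood at 4.18, 4.52 and 5.67 CPM against 0.0888, 0.302 and 0.448. In both regulators the lowest VP16 library stood above the highest GFP library. ABCB4, a phospholipid transporter of the bile canaliculus, RTN4RL1, a receptor of the Nogo receptor family, MUC13, a membrane mucin, and MAGEC1, a cancer-testis antigen, differed by 3.59 ± 0.26, 3.44 ± 0.22, 3.18 ± 0.25 and 2.68 ± 0.17 on the log2 scale (SE, edgeR adjusted p from 8.4e-05 to 0.00022), also with no overlap between the clones. The other 4 of the 12 genes with the largest smallest-pair difference, CD74, HLA-DRA, CIITA and BST2, belong to antigen presentation and the interferon response and are described with those groups.

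Among the genes lower in the VP16 clone, CHRDL1 and TIMP3 had the largest differences by their smallest pair. CHRDL1, a secreted antagonist of BMP ligands, lay at 11.2, 16.0 and 19.985 CPM in the GFP clone (lowest, median and highest) and at 0, 0.0444 and 0.0472 in the VP16 clone, where 6 libraries held 5 counts against 2183. TIMP3, a matrix-bound inhibitor of metalloproteinases, lay at 13.0, 23.5 and 34.5 CPM against 0.089, 0.414 and 1.18. This is -5.63 ± 0.27 on the log2 scale (SE, edgeR adjusted p = 3.5e-05). WBSCR17, a GalNAc-transferase that starts O-linked glycans, lay at 25.9, 28.4 and 33.9 CPM against 0.950, 1.36 and 1.70. None of these 3 genes had a VP16 library within reach of the lowest GFP library. B3GAT1, the glucuronyltransferase that makes the HNK-1 carbohydrate of neural adhesion molecules, had 2 counts in the 6 VP16 libraries, and the GFP level was 287.5 times higher (95% exact interval 79.3 to 2379.6). GABBR2, a subunit of the GABA-B receptor, and NRCAM, a neural cell adhesion molecule, differed by -4.65 ± 0.26 and -3.93 ± 0.13 on the log2 scale (SE, edgeR adjusted p = 5.7e-05 and 6.2e-06). GHR, the growth hormone receptor, FRAS1, a basement membrane protein, and FBLN2, a fibulin of elastic fibres and basement membranes, differed by -3.67 ± 0.15, -4.34 ± 0.24 and -3.35 ± 0.20 (SE, edgeR adjusted p from 1.8e-05 to 6.1e-05). The last 3 of the 12 are the pseudogenes CXADRP1 and NBEAP1 and the noncoding gene CTC-497E21.4, with -6.22 ± 0.31, -3.93 ± 0.29 and -4.88 ± 0.11. Reads of pseudogenes may be shared with near-identical copies, and without a stated strand setting those of overlapping genes cannot be told apart, so these 3 values are uncertain. All 24 genes of both groups kept their direction and their call in each of the 19 other fits made for them. They were chosen for large differences in every pair of these same libraries, so this is not independent support.

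**Figure D1:**
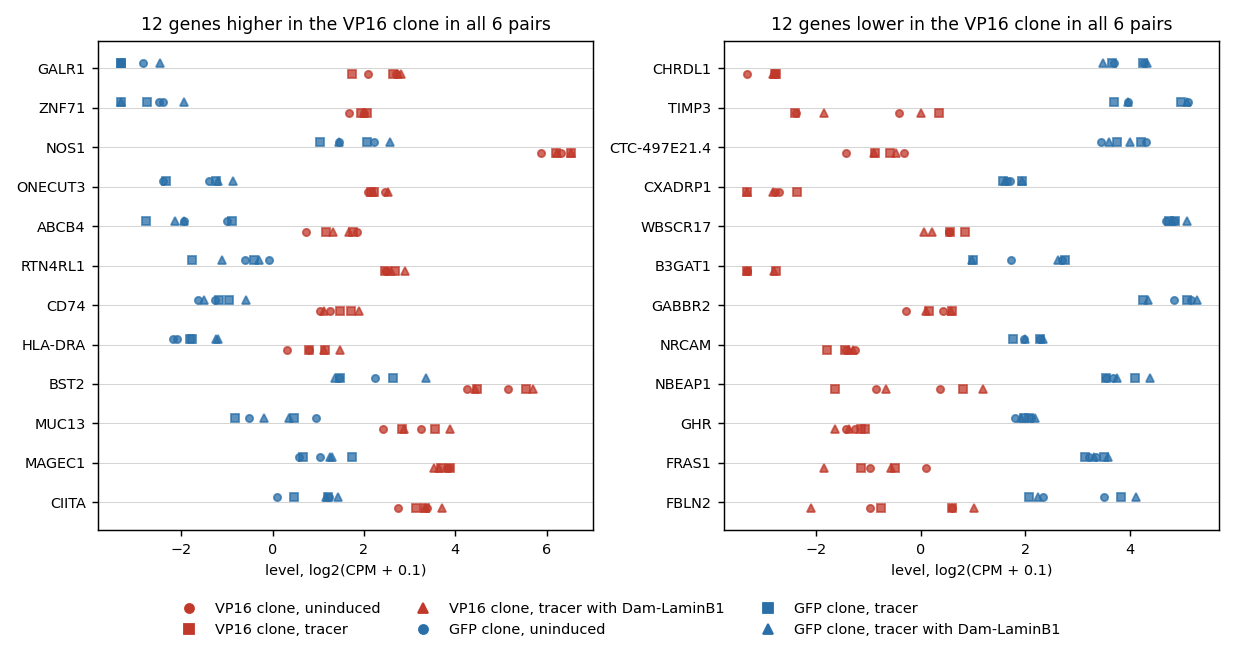
Level of the 12 genes higher and the 12 genes lower in the VP16 clone with the largest smallest-pair difference, as log2(CPM + 0.1), 1 point for each of the 12 libraries. Red points are the VP16 clone and blue points the GFP clone, and the marker gives the condition. The 2 colours do not overlap in any of the 24 genes, which were chosen for large differences in every pair.

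Most genes that differed before induction also differed after it. By edgeR, blocking on index set, 327 genes passed in the uninduced pairs alone (1.89%), 82 of them higher in the VP16 clone and 245 lower. In the tracer pairs 490 did (2.84%, 167 higher and 323 lower), and with Dam-LaminB1 551 did (3.19%, 184 higher and 367 lower). These 3 comparisons use separate libraries but share 1 fit, with its spread and its index set term, so they are not independent. In all 3, 221 genes passed in one direction, 62 higher and 159 lower. The 249 genes shared by uninduced and tracer pairs are 76.1% of the uninduced calls and 50.8% of the tracer calls, and the 244 shared with Dam-LaminB1 are 74.6% and 44.3%. In the 236 genes of at least 2-fold, the median absolute log2 difference was 2.48 uninduced, 2.50 with the tracer and 2.44 with Dam-LaminB1. These genes were chosen for at least 2-fold in every pair, so large medians in each condition follow in part from the choice. Without the block, the 3 counts were 48, 57 and 45. Each count fell furthest without a VP16 library of its own condition, to 15 without VP16_uninduced replicate 2, 23 without VP16_tracer replicate 1 and 25 without VP16_tracer_Dam replicate 1.

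**Figure D2:**
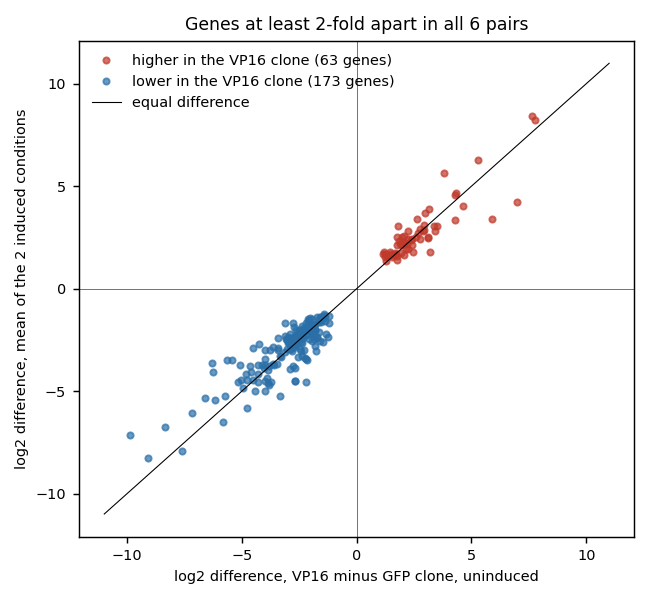
Log2 difference (VP16 minus GFP clone) of the 236 genes that differed at least 2-fold in all 6 pairs, with the uninduced pairs on the x axis and the mean of the 2 induced conditions on the y axis. Red points are the 63 genes higher and blue points the 173 lower in the VP16 clone, and the line marks equal differences. The genes were chosen for their direction in all pairs, so the choice fixes the quadrant of each point.

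No gene passed a test of whether the clone difference itself changed between uninduced and induced cells (edgeR, smallest adjusted p = 0.89), with 397 at an unadjusted p under 0.05. DESeq2 and limma-voom also called 0, with 217 and 408 at an unadjusted p under 0.05. A count of 0 does not show that the differences were equal. The uninduced libraries enter both the uninduced comparison and the set of all 6 pairs, so overlap between them is partly fixed in advance. Of the 327 genes that passed in the uninduced pairs, 320 (97.9%) are among the genes of all 6 pairs, where they are 8.58% of the set. The other 7 make up the genes of the uninduced pairs only: TUBB4A, NDRG4, NKX6-1, UNC80, NPY1R and 2 noncoding genes. TUBB4A, a brain beta-tubulin, had log2 differences of -1.398 and -1.08 in the uninduced pairs and -0.63, 0.26, -0.66 and -0.21 in the induced ones. NDRG4 and UNC80, both best known from neurons, had 0.14 and 0.36 in the Dam-LaminB1 pair of index set 1 against -1.002 and -1.06 in the uninduced pair of that set. The 6 genes of this group that were lower in the uninduced VP16 clone each had their one positive value in that Dam-LaminB1 pair, which holds one of the outlying GFP libraries. NPY1R, a neuropeptide Y receptor, had -1.06, -2.49 and -1.37 in the other 3 induced pairs. Over all 6 pairs, 3 of the 7 did not pass, TUBB4A, NDRG4 and UNC80 (edgeR adjusted p = 0.064, 0.069 and 0.12). The induced-against-uninduced test gave all 7 an adjusted p of 0.89 (edgeR), so they are set apart by the sign rule and not by a tested change.

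Many antiviral effectors of the interferon response were higher in the VP16 clone. Interferons act through STAT and IRF transcription factors on a set of antiviral effector genes. Of 35 antiviral effectors, 17 were higher (16 in all 6 pairs) and 2 lower in the VP16 clone by edgeR, or 48.6% and 5.71% against 10.6% and 12.8% of all genes tested, with a median log2 difference of 0.53 against 0.01. BST2 (tetherin, which holds budding virus at the cell surface) lay at 18.96, 28.9 and 51.9 CPM in the VP16 clone and at 2.49, 3.68 and 10.2 in the GFP clone, with no overlap. Its log2 difference was 2.85 ± 0.11 (SE, edgeR adjusted p = 1.7e-05), and the 6 pairs ran from 2.34 to 3.06. IFI44, an interferon-induced cytoplasmic protein, lay at 18.2, 35.0 and 69.0 CPM against 3.15, 7.46 and 13.4, or 2.36 ± 0.10. ISG15, the ubiquitin-like modifier, lay at 40.1, 77.3 and 170 CPM against 12.8, 26.0 and 62.8, so its clone ranges overlapped although every pair differed by 1.41 to 1.82. In each clone the 3 libraries of index set 1 lay above the 3 of index set 2, at 109 to 170 CPM against 40.1 to 45.4 in the VP16 clone and at 37.0 to 62.8 against 12.8 to 14.98 in the GFP clone. IFIT3, a partner of the viral RNA sensor IFIT1, OAS2, which activates RNA decay, and RSAD2 (viperin), an antiviral enzyme, differed by 1.11 ± 0.06, 2.09 ± 0.26 and 2.11 ± 0.46 (SE).

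The difference was not uniform over the list or over the pairs. The list median was 0.92, 1.21 and 1.08 in the pairs of index set 1 and -0.01, 0.16 and 0.25 in those of index set 2. MX1, a dynamin-like antiviral GTPase, had 0.92, 1.00 and 0.78 in index set 1 and -0.75, -0.68 and -0.42 in index set 2 and did not pass (edgeR adjusted p = 0.56). The difference between the index sets was not tested. Without the 2 outlying pairs, 17 effectors were higher and 6 lower, while calls over all genes rose from 4031 to 6535. The effectors lower in the VP16 clone were TRIM22 (-0.93 ± 0.12), an antiviral ubiquitin ligase encoded on chromosome 11, and DTX3L (-0.35, a ubiquitin ligase partner of PARP9). Among 19 sensors and signalling genes 5 were higher and 1 lower (26.3% and 5.26%). IRF3 and STAT2, transcription factors of the induction and response arms, differed by 0.43 ± 0.06 and 0.40 ± 0.07 (SE, edgeR adjusted p = 0.0027 and 0.0075). With the median of each chromosome as an offset, a setting added after seeing the data, STAT2 of chromosome 12 had 0.23 and did not pass (edgeR adjusted p = 0.070). TLR3, the endosomal receptor for double-stranded RNA, was lower at 1.14, 3.63 and 6.78 CPM against 5.58, 8.15 and 17.5, with -1.54 ± 0.18 (SE, edgeR adjusted p = 0.0011).

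Promoters of ISG15, BST2 and IFIT3 are shown as examples that carry the interferon response element core. GAAANNGAA, searched on both strands with overlapping matches allowed, was found in 10 of the 12 promoters matched among the 16 effectors higher in all 6 pairs (83.3%). Over all genes tested it was in 755 of 11697 promoters (6.45%). In the genes at least 2-fold higher it was in 9 of 40 (22.5%), a set that shares genes with the effectors, and in the genes at least 2-fold lower in 4 of 125 (3.20%). A match is a description of letters and not a binding site. The list holds genes of the interferon response, and the share among its members that were not higher was not computed. Promoters run from 250 bases before to 50 after the start of the gene, from RefSeq on GRCh38.p14, and the matches are in capitals.
ISG15 (chr1:1013247-1013546, plus strand): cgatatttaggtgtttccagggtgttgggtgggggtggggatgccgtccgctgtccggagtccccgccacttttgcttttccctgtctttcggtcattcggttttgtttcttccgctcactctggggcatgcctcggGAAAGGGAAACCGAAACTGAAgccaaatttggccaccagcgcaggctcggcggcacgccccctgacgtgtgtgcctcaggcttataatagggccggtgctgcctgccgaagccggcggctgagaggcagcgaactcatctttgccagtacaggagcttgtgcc
BST2 (chr19:17405581-17405880, minus strand): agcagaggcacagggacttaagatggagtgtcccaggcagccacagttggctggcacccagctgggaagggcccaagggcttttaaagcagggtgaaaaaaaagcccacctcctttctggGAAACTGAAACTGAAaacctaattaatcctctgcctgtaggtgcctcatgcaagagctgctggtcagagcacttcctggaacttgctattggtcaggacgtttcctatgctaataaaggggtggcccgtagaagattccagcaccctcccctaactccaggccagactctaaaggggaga
IFIT3 (chr10:89327747-89328046, plus strand): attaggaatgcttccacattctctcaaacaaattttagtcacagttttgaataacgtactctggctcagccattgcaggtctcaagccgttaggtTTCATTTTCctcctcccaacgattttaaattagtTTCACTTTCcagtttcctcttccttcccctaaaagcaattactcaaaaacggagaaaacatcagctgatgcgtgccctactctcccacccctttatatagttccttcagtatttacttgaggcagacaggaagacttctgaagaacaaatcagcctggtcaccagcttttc
The capitals of ISG15 hold 3 overlapping matches and those of BST2 2, while IFIT3 has 2 separate matches in the reverse orientation.

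MHC class II genes, which present peptides from outside the cell, were higher in the VP16 clone in 6 of 9 members and lower in none (66.7% against 10.6% of all genes). CIITA, the coactivator that class II promoters need, lay at 6.63, 9.94 and 13.0 CPM against 0.976, 2.19 and 2.61, so that log2 levels differed by 2.37 ± 0.12 (SE, edgeR adjusted p = 3.8e-05). CD74, the invariant chain, lay at 1.96, 2.47 and 3.59 CPM against 0.222, 0.331 and 0.570. HLA-DRA, the invariant alpha chain of HLA-DR, lay at 1.14, 1.86 and 2.69 CPM against 0.119, 0.191 and 0.337. The clones did not overlap in any of the 3, and the pairs ran from 2.11 to 2.69 in CIITA, from 2.44 to 2.93 in CD74 and from 2.35 to 2.95 in HLA-DRA. HLA-DPA1, an alpha chain of HLA-DP, differed by 1.67 ± 0.10, and the peptide-loading chains HLA-DMB and HLA-DMA by 1.403 ± 0.28 and 0.49 ± 0.08 (SE). HLA-DPB1 (-0.03), HLA-DOA (-0.45) and CTSS (-0.33), the protease that trims the invariant chain, did not pass (edgeR adjusted p = 0.91, 0.45 and 0.17). Unlike the antiviral effectors, the list median was positive in each of the 6 pairs, from 0.61 to 1.96. Beside these genes, 2 macrophage markers were higher: CSF1R, a macrophage growth factor receptor, lay at 15.8, 18.1 and 25.2 CPM against 10.8, 13.7 and 18.4 (0.45 ± 0.06) and CD68, a lysosomal glycoprotein, at 168, 223 and 337 against 117, 152 and 235 (0.58 ± 0.04). Both passed (edgeR adjusted p = 0.0022 and 0.00018), while LCP1, an actin-bundling protein of leukocytes, was lower, with -0.75 ± 0.07, and ITGAM did not pass. Their part in the result was not tested. Of the other blood cell markers, PTPRC, CD79A, MS4A1 and CD14, which define leukocytes, B cells and monocytes, reached at most 0.248 CPM in any library. The summed level of the 19 markers ran from 572 to 812 CPM in the VP16 clone and from 648 to 1060.3 in the GFP clone, 11 of the 19 were under 1 CPM in every library of each clone, and of the 8 tested 2 were higher and 1 lower. Of the MHC class I genes, 4 of 18 were higher and 2 lower (22.2% and 11.1% against 10.6% and 12.8% of all genes), and with the chromosome offset 3 were higher and none lower. TAP1, which pumps peptides into the endoplasmic reticulum, differed by 0.36 ± 0.07 and B2M, the class I light chain encoded on chromosome 15, by -0.23 ± 0.04. The promoter of CD74 is shown because CD74 is among the leading genes and its promoter holds a GATC, the site Dam methylates (in capitals).
CD74 (chr5:150412861-150413160, minus strand): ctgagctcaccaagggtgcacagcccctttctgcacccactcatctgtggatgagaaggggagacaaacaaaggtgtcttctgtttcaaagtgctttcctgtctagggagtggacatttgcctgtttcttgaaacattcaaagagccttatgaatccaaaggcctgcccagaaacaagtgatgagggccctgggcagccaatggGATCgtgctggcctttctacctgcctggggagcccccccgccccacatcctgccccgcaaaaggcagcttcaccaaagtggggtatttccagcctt
GATC was in 4564 of 11697 promoters (39.0%), in 14 of 40 of the genes at least 2-fold higher (35.0%) and in 59 of 125 of those at least 2-fold lower (47.2%). Of 4 class II promoters matched, 2 held it, and those of the leading genes GALR1 and NOS1 did not.

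The extracellular matrix differed member by member and not as a whole. Of 34 matrix and basement membrane glycoproteins, 12 were higher (9 in all 6 pairs) and 8 lower, or 35.3% and 23.5% against 10.6% and 12.8% of all genes, with a median of -0.01. The Fraser complex proteins FRAS1 and FREM2 (-3.24 ± 0.50) and the fibrillin FBN2 (-3.83 ± 0.27) were lower, while FBN1, the main fibrillin of adult tissue, lay at 135, 160 and 182 CPM against 87.9, 95.2 and 113, or 0.72 ± 0.06 higher (SE, edgeR adjusted p = 0.00021). NID2 (nidogen 2, a basement membrane linker) lay at 18.4, 22.6 and 32.1 CPM against 5.99, 7.69 and 9.48. Type IV collagens of the minor networks were lower: COL4A5 at 5.38, 6.38 and 8.22 CPM against 14.6, 17.9 and 22.1, COL4A6 by -2.72 ± 0.21 and COL4A4 by -3.03 ± 0.36. In all, 7 of 28 collagens were lower (6 in all 6 pairs) and 4 higher (3 in all 6 pairs), or 25.0% and 14.3%, and with the chromosome offset 7 were lower and 2 higher. The 2 higher with the offset, COL6A1 and COL6A3 of beaded filaments, were also higher without it (0.74 and 0.42), the second with 1 pair of the other sign.

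Of the proteases and their inhibitors, 9 of 26 were higher (8 in all 6 pairs) and 6 lower, or 34.6% and 23.1% against 10.6% and 12.8% of all genes. TIMP3 was the extreme, and the related inhibitor TIMP1 was 0.43 higher. MMP24 and MMP15, membrane-anchored metalloproteinases, were higher by 2.26 ± 0.17 and 1.51, while the secreted gelatinases MMP2 and MMP9 were lower, with -0.75 ± 0.08 and -1.73 ± 0.21 (SE). MMP2 lay at 78.9, 88.1 and 120 CPM against 121, 151 and 221, and the highest VP16 library was just under the lowest GFP library. Of 38 proteoglycans and glycosyltransferases 9 were lower and 3 higher, or 23.7% and 7.89%, the second below the share of all genes. SDC2 (syndecan 2, a heparan sulfate proteoglycan) lay at 1.41, 2.57 and 3.73 CPM against 11.1, 15.8 and 21.8, and CSGALNACT1, which starts chondroitin sulfate chains, at 32.6, 38.0 and 43.5 against 10.5, 10.7 and 16.0. Both had clones that did not overlap. ITGA1, a collagen-binding integrin, was higher by 1.11 ± 0.12, and ITGB5, a vitronectin-binding one, was lower, with -0.37 ± 0.08.

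Genes best known from neurons were as often higher as lower, 8 and 8 of 32 (25.0% each against 10.6% and 12.8% of all genes, with 7 and 6 in all 6 pairs), and 7 of them differed at least 2-fold in every pair. Beside NOS1 and ONECUT3, NEFL, a neurofilament, was higher by 1.46 and SNAP25, a vesicle fusion protein, by 0.79. Lower were GABBR2, the presynaptic adhesion molecule NRXN3 (-4.25 ± 0.38), SH3GL3, an endophilin (-3.58 ± 0.21), and GAP43, a growth cone protein, which lay at 0, 0.209 and 0.331 CPM against 1.52, 2.09 and 2.40. Of 38 axon guidance genes 9 were higher and 8 lower (23.7% and 21.1%, with 7 of the 8 in all 6 pairs), with the netrin NTN4 at 1.23 ± 0.12 and the guidance receptors EPHB1 and PLXND1 at -1.59 ± 0.19 and -0.79 ± 0.07. Clustered protocadherins, which give neurons a surface identity, were lower in 8 of 32 (25.0%, 7 in all 6 pairs) and higher in 2 (6.25%, below the share of all genes). PCDHGA12 lay at 0.109, 0.289 and 0.425 CPM against 1.55, 1.82 and 2.36, and PCDHGC5 went the other way, at 2.55, 3.18 and 5.58 against 0.488, 0.835 and 1.23. Protocadherins of the alpha or gamma cluster share their last exons, so the split of their reads is uncertain. Both genes named here are of the gamma cluster.

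Of 47 G protein-coupled receptors, 7 were higher and 8 lower, or 14.9% and 17.0% against 10.6% and 12.8% of all genes, with 4 of the 8 lower in all 6 pairs. GALR1, CMKLR1 (a chemerin receptor, 2.53 ± 0.16) and the sphingosine-1-phosphate receptors S1PR5 (2.05) and S1PR1 (1.05) were higher, and LPAR1, a lysophosphatidic acid receptor, was lower, with -4.70 ± 0.47 and 4 counts in the 6 VP16 libraries. Of the BMP and TGF-beta pathways, 8 of 36 genes were higher (22.2%) and 3, CHRDL1 among them, lower (8.33%, below the share of all genes). The higher ones include the ligands BMP2 and BMP6 (1.44 and 1.15) and the BMP target genes ID1, ID3 and SMAD6 (0.88, 0.79 and 0.76). With the chromosome offset the antagonist FST was higher too (0.79, edgeR adjusted p = 0.0019). In that fit ID2 (0.36), SMAD7 (-0.13), BMP4 (-0.96) and BAMBI (-0.78) did not pass (edgeR adjusted p = 0.23, 0.68, 0.13 and 0.11). A change of the pathway as a whole was not tested. ID1 lay at 47.2, 56.8 and 71.8 CPM against 16.9, 36.6 and 44.7, with no overlap. NOTCH3 lay at 1.96, 3.26 and 5.05 CPM against 10.4, 17.2 and 21.8, and DKK3, a secreted protein of the Dickkopf family, at 30.4, 31.3 and 33.9 against 55.4, 57.7 and 64.5. In both the clones stood apart.

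**Figure D3:**
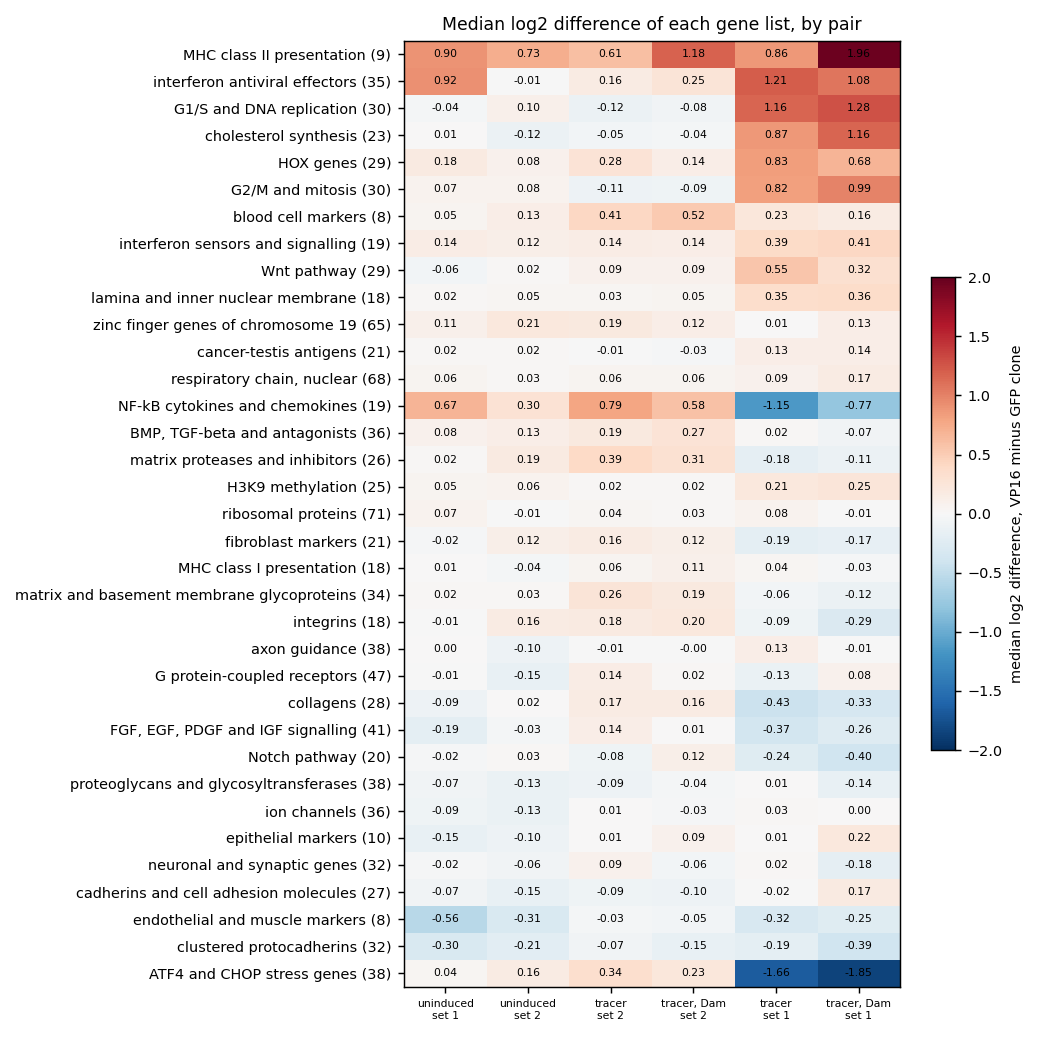
Median log2 difference (VP16 minus GFP clone) of 35 gene lists, 1 row for each list with its number of tested genes and 1 column for each pair; red is higher and blue lower in the VP16 clone. The last 2 columns are the pairs of the outlying GFP libraries, where ATF4 and CHOP stress genes reach -1.66 and -1.85 and G1/S genes 1.16 and 1.28, while MHC class II genes are positive in all 6 columns.

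The level of whole chromosomes differed between the clones in all 6 pairs. On chromosome 4, 295 of 621 tested genes were lower in the VP16 clone (47.5%) and 9 higher. Chromosome 11 had 472 of 976 lower (48.4%) and 22 higher, and chromosome 15 had 207 of 597 lower (34.7%) and 13 higher. In the other direction, 234 of 925 genes of chromosome 12 were higher (25.3%) and 30 lower, and 323 of 1818 of chromosome 1 were higher (17.8%) and 101 lower. These are to be read against 10.6% higher and 12.8% lower over all chromosomes. Chromosomes 4, 11 and 15 held 12.7% of the genes tested and 44.1% of the genes lower in the VP16 clone, or 974 of 2208. With genes of these chromosomes left out of the count, 1779 genes were higher and 1234 lower.

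The size of the shift was small and repeated from pair to pair. The median log2 difference of chromosome 4 was -0.32 over all its genes, and the 6 pairs gave values between -0.29 and -0.36. On chromosome 11 the median was -0.31, and the pairs lay between -0.29 and -0.33. Chromosome 15 had -0.24 with pairs between -0.21 and -0.25, chromosome 12 had 0.17 with pairs between 0.13 and 0.18, and chromosome 1 had 0.11 with pairs between 0.09 and 0.14. Chromosome 3 was lower by a smaller amount, -0.10, with 198 of 972 genes lower (20.4%). The other 17 chromosomes had medians between -0.05 and 0.06. The pairs with the outlying GFP libraries gave the same sign for these 6 chromosomes, -0.34 and -0.29 on chromosome 4 and -0.30 and -0.29 on chromosome 11. In the centred level of each chromosome by library, the 6 VP16 and 6 GFP libraries did not overlap on chromosomes 1, 3, 4, 11, 12, 15 and 21, and they overlapped on the other 16 chromosomes. RNA levels alone do not give the copy number of a chromosome, and the cause of these shifts was not tested.

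**Figure D4:**
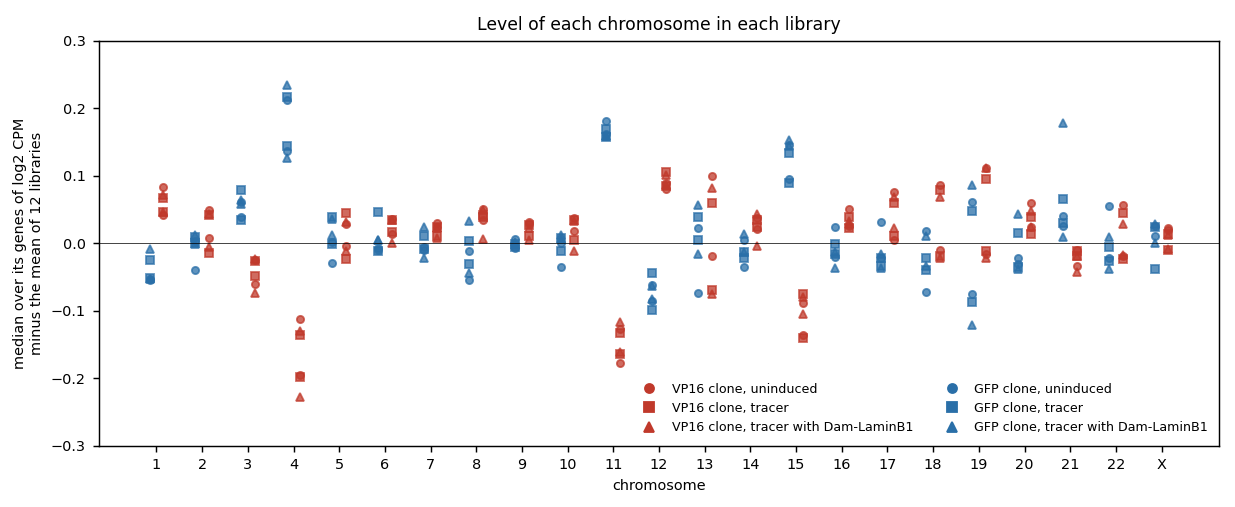
Level of each chromosome in each of the 12 libraries, as the median over its tested genes of log2 CPM minus the gene's mean over all libraries. Red is the VP16 clone, blue the GFP clone, and the marker gives the condition. On chromosomes 4, 11 and 15 the VP16 libraries lie between -0.23 and -0.08 and the GFP libraries between 0.09 and 0.23, and on chromosomes 1 and 12 the order is turned.

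The shift ran along whole chromosomes. In windows of 20 neighbouring tested genes, taken every 10 genes, all 61 windows of chromosome 4 had a median below 0, from -0.63 to -0.15, as had all 96 of chromosome 11, from -0.62 to -0.12, and 57 of 58 of chromosome 15. On chromosome 12, 81 of 91 windows were above 0, and on chromosome 1, 157 of 180. Chromosome 2, shown for comparison with 72 of 114 windows above 0 and a median of 0.03, had both signs. Chromosomes 17 and 18, each with a median of 0.06, had 75 of 95 and 16 of 20 windows above 0. Neighbours also passed together: there were 212 runs of at least 3 neighbouring genes called in one direction, with 787 genes in all, 147 runs lower and 65 higher. The longest, of 9 genes, spans SEC31A to MRPS18C (chromosome 4, 83739814 to 84390888, GRCh37, as are all gene positions from the deposited table) with a median of -0.36. The next was CPLX1 to CTBP1 on the same chromosome, with 8 genes and a median of -0.35. Both medians are near the -0.32 of that chromosome, where 47.5% of genes were called lower. Over all genes tested 23.4% were called. How many runs such shares would give without regard to position was not computed.

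**Figure D5:**
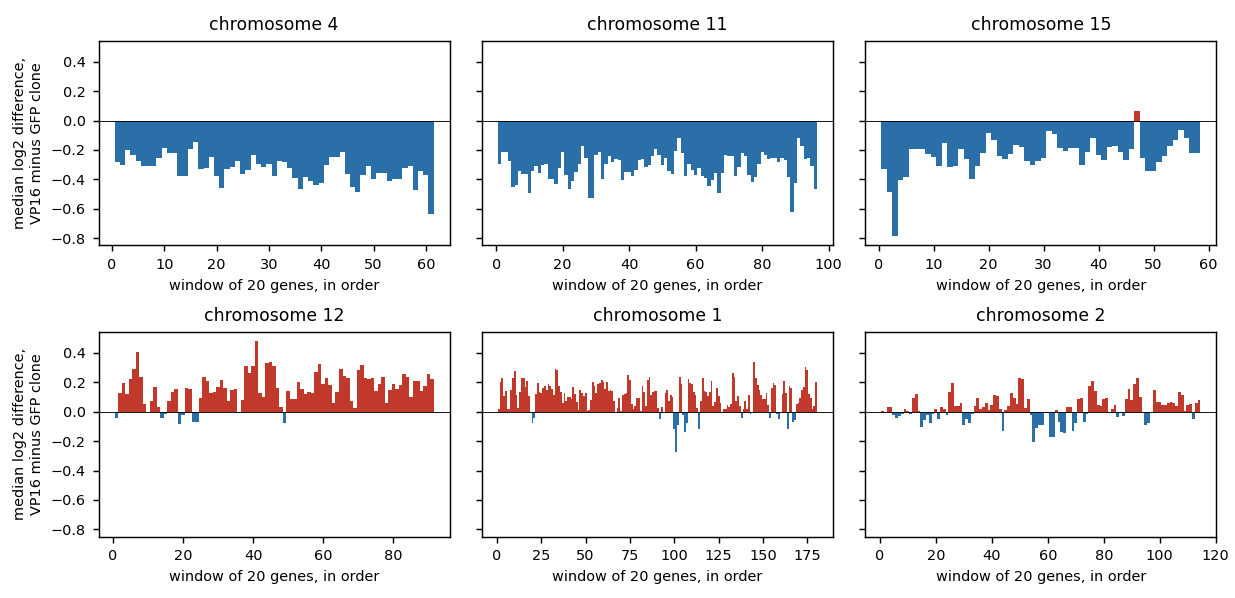
Median log2 difference (VP16 minus GFP clone) in windows of 20 neighbouring tested genes, in chromosome order, for chromosomes 4, 11, 15, 12, 1 and, for comparison, 2. Bars below 0 (blue) fill chromosomes 4 and 11 from end to end, bars above 0 (red) most of chromosomes 12 and 1, and chromosome 2 shows both signs.

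Of 71 ribosomal protein genes 11 were lower and 9 higher (8 in all 6 pairs) in the VP16 clone, or 15.5% and 12.7% against 12.8% and 10.6% of all genes, and 10 of the 11 lower ones lie on chromosomes 4, 11 and 15, which carry 11 of the 71. RPL34 of chromosome 4, a protein of the large subunit, lay at 190, 193 and 209 CPM against 253, 266 and 275 (-0.44 ± 0.04, SE, edgeR adjusted p = 0.00041). RPS3A, a small subunit protein also of chromosome 4, differed by -0.41 ± 0.05, and RPS3 of chromosome 11, which lines the mRNA entry site, by -0.33 ± 0.04. Of the 9 higher ones 2 lie on chromosomes 1 and 12, among them RPL6 (0.20). Of 68 nuclear genes of the respiratory chain 7 were lower (10.3%), 6 of them on chromosomes 4, 11 and 15, and 8 higher (11.8%), 4 of them on chromosomes 1 and 12. NDUFV1 (complex I, chromosome 11) lay at 82.9, 88.5 and 90.9 CPM against 109, 114 and 119, and NDUFA12 (complex I, chromosome 12) at 47.0, 49.3 and 51.2 against 32.2, 35.9 and 39.7. Subunits of one complex thus stood apart in opposite directions with no overlap between the clones.

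Of 41 genes of FGF, EGF, PDGF and IGF signalling 11 were lower (26.8%, 9 in all 6 pairs) and 5 higher (12.2%, 4 in all 6 pairs). Chromosomes 4, 11 and 15 carry 14 of the 41 (34.1%) and 8 of the 11 lower ones, and 1 of the 5 higher ones lies on chromosomes 1 and 12. The 8 are EGF (-1.60 ± 0.15), PDGFC (-0.95 ± 0.06), KDR, KIT, FGFR3 and SPRY1 on chromosome 4, IGF2 on chromosome 11 and SPRED1 on chromosome 15. IGF2 turned to 0.64 in index set 2 alone. With the chromosome offset 8 of the list were higher and 7 lower, and IGF2, KDR and FGFR3 did not pass (edgeR adjusted p = 0.11, 0.098 and 0.23). Of 29 HOX genes 8 were higher (27.6% against 10.6% of all genes, 7 in all 6 pairs) and none lower by edgeR, with 26 of 29 positive, and with the chromosome offset 5 were higher; 6 of the 8 belong to the HOXC cluster of chromosome 12, where 7 neighbours from HOXC10 to HOXC4 passed together (54378849 to 54449814, median 0.70). HOXC8 lay at 5.10, 5.35 and 6.57 CPM against 3.81, 4.14 and 4.38, and with the offset it had 0.28 and did not pass (edgeR adjusted p = 0.064). Genes of this cluster overlap in the annotation, so their values are not independent. The HOX list median was 0.83 and 0.68 in the pairs of the outlying libraries and 0.08 to 0.28 in the others.

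With the median of each chromosome taken out as an offset, 2621 genes passed, 1157 higher and 1464 lower. These medians come from the same 12 libraries. A more even split by chromosome, and the loss of calls near the size of the shift, therefore follow from the method. Of the 4031 calls made without the offset 2339 were kept in one direction. On chromosomes 4, 11 and 15, 235 genes were then lower and 152 higher, where 974 and 44 had been. As without it, 236 genes were at least 2-fold in every pair, 66 higher and 170 lower. Antiviral effectors were then higher in 18 and lower in 2 and class II genes higher in 6. Ribosomal proteins were left with 3 higher and 1 lower, and respiratory chain genes with 3 higher and none lower.

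Some neighbourhoods differed far more than their chromosome. The window with the lowest median, -0.79, spans SNRPN to FAM189A1 on chromosome 15 (25068794 to 29862927), the imprinted region of Prader-Willi and Angelman syndromes. SNRPN, a splicing protein expressed from the paternal copy, lay at 0.400, 0.541 and 0.826 CPM against 0.743, 1.11 and 2.16 (-1.13 ± 0.17), SNURF, which shares its transcripts, differed by -1.58 ± 0.20 and UBE3A, the ubiquitin ligase next to it, by -0.34 ± 0.04, where the median of its chromosome was -0.24. At the start of the long arm of chromosome 21, 5 neighbours of repeated gene families, ANKRD30BP1, OR4K12P, POTED, GRAMD4P1 and CXADRP1 (14756570 to 15049437), were each at 0.371 CPM or more in every GFP library and at 0.0944 or less in every VP16 library. POTED had no count in any VP16 library. These genes have near-identical copies elsewhere, so the source of their reads is uncertain. On chromosome 19, 7 zinc finger genes of one neighbourhood were lower: ZNF93, ZNF90, ZNF486, ZNF626, ZNF208, ZNF257 and ZNF676 (20011722 to 22379753) differed by -2.07 to -4.23. A run of 3 neighbours between them, CTD-3233P19.1, ZNF708 and ZNF738 (21332451 to 21562104), was higher, with a median of 0.43. Of a list of 65 zinc finger genes of this chromosome, which holds 5 of the 7, 16 were higher (24.6%, 14 in all 6 pairs) and 6 lower (9.23%). ZNF208 lay at 1.14, 2.16 and 3.53 CPM against 8.93, 10.3 and 13.4.

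Cell cycle genes gave few calls over all 6 pairs and more without the 2 outlying ones, where calls over all genes rose as well. Of 30 G1/S genes 1 was lower (3.33%, CCND1 of chromosome 11, -0.41 ± 0.05) and none higher by edgeR, and of 30 G2/M genes 1 was higher (3.33%, CDC25B, 0.49 ± 0.14). With the chromosome offset neither passed (edgeR adjusted p = 0.19 and 0.071). Without the outlying pairs, calls over all 17262 genes tested rose to 3145 higher and 3390 lower, from 1823 and 2208. In that fit 6 G1/S genes were higher and 11 lower, and 2 G2/M genes were higher and 9 lower. Their medians were 1.16, 1.28, 0.82 and 0.99 in the 2 outlying pairs and -0.12 to 0.10 elsewhere. LMNB1, the lamin that is fused to Dam, lay at 122, 171 and 186 CPM against 29.5, 179 and 203 (edgeR adjusted p = 0.28). Its pair differences were 2.03 and 2.04 in the outlying pairs and -0.17 to -0.02 in the others. The H3K9 methyltransferases EHMT1 and EHMT2 behaved alike, with 0.45 to 1.18 in the outlying pairs and -0.17 to 0.05 elsewhere, and did not pass (edgeR adjusted p = 0.28 and 0.29). Of 25 H3K9 methylation genes 2 were higher and 1 lower (8.00% and 4.00%), and without the outlying pairs 6 and 3. Of 18 lamina genes 3 were higher and 1 lower (16.7% and 5.56%), and without the outlying pairs 6 and 4. The lower one, BANF1, a chromatin-bridging protein encoded on chromosome 11, differed by -0.36 ± 0.05, and with the chromosome offset by -0.04 (edgeR adjusted p = 0.55), where 1 lamina gene was higher and none lower.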

How the data were processed

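RNA was sequenced from 12 libraries of 2 HT1080 clones. The authors deposited raw read counts per gene, made with TopHat 1.4.0, Bowtie 0.12.7 and HTSeq on GRCh37, per the submitters' processing notes; which version of HTSeq, overlap mode and strand option were used is not stated in those notes. Antisense and overlapping genes and near-identical copies are therefore uncertain. From these counts, genes were filtered with filterByExpr, scaled by TMM and tested with edgeR 4.0.16 (R 4.3.3) in a quasi-likelihood fit with the pair as a block (5 residual degrees of freedom), with Benjamini-Hochberg adjustment over 17262 genes and a threshold of 0.05. Conditions were tested with the index set as a block (5 residual degrees of freedom). Pair differences are of log2 CPM with a prior count of 2. Totals of 18774905 to 24827396 counts set the precision.

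The pairing comes from the condition and the index sequences in the titles. The difference between the index sets correlated between the 6 groups at r = 0.43 to 0.92 in 15 comparisons. The highest was between the GFP clone groups with tracer and with tracer and Dam-LaminB1, which hold the outlying libraries. Among the groups without an outlying library r was 0.66 to 0.80. DESeq2 1.42.0 and limma 3.58.1 (voom) were alternatives. Genes named are the 12 higher and 12 lower with the largest smallest-pair difference and a mean of at least 1 CPM, up to 3 per list by p, up to 6 of the uninduced pairs only, LMNB1, EHMT1, EHMT2 and the longest runs. Other members were named after their values were seen. The members, lists and rules were chosen with earlier results of these data known. The chromosome offset, counts without genes of chromosomes 4, 11 and 15 and chromosome medians under other settings were added after seeing the data. The fits were tested on simulated data. Of 17262 genes 11697 matched a RefSeq promoter by symbol, and of the 236 genes at least 2-fold apart 165 did. Intervals cover counting error only. The text calls 2 libraries replicates as the design text does; whether they are separate cultures is not stated further, so p-values measure the spread between these libraries. One of the gene lists and some single genes are not reported here.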

Additional observations from a re-analysis of the deposited data

How the results depend on the processing

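The 24 leading genes, chosen for large differences in every pair of these libraries, kept direction and call in all 19 alternatives run for them. Without the replicate block, 1318 genes passed in place of 4031, 1290 in place of 3730 in all 6 pairs, 48, 57 and 45 in the uninduced, tracer and tracer with Dam-LaminB1 pairs, and 0 in the uninduced pairs only. DESeq2 gave 722, 1037 and 1143 for these conditions. Leaving out 1 pair gave 2703 to 3292 genes, 2627 to 3182 in all remaining pairs and 255 to 288 at least 2-fold. Leaving out 1 library gave 15 (VP16_uninduced replicate 2) to 485 (GFP_tracer_Dam replicate 2) uninduced calls, 23 (VP16_tracer replicate 1) to 771 (GFP_tracer_Dam replicate 1) tracer calls and 25 (VP16_tracer_Dam replicate 1) to 1682 (GFP_tracer_Dam replicate 2) tracer with Dam-LaminB1 calls; the lone library is assumed to vary like the others. Without the 2 outlying pairs the counts were 6535 and 6159, list members called rose from 337 to 553, and the medians of chromosomes 11 and 15 were -0.34 and -0.27. Index set 1 alone gave 514 and 511, index set 2 alone 6193, 6108 and, at least 2-fold, 472, and the 4 induced pairs 1423 and 1406. A test against a fold of 1.5 left 487 genes. A mean of at least 1 CPM left 150 genes at least 2-fold, and limits of 0.5 and 2 on the log2 scale gave 615 and 55. The chromosome offset gave 2621 and 2464. The cause was not tested for any of these.

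Without the outlying pairs these single genes changed sign: ESRP1 0.12, LMNB1 -0.10, EHMT1 -0.037, EHMT2 -0.062, ATF4 0.13, PARP9 -0.20, MX1 -0.13 and HLA-DOA 0.67. In index set 2 alone LMNB1 had -0.13, EHMT1 -0.014, EHMT2 -0.074, ATF4 0.12, PARP9 -0.32, MX1 -0.65, IGF2 0.64 and HLA-DOA 0.038. Leaving out 1 pair gave HLA-DOA -0.84 to 0.024 and HLA-DPB1 -0.13 to 0.059. HLA-DPB1 had 0.23 in index set 1 alone and 0.048 in the induced pairs. With the offset B2M had 0.0079, SEC31A 0.034, CTBP1 0.025 and MRPS18C 0.073. KRT18, at 0.02 over all pairs, had -0.0023 at a mean of at least 1 CPM, -0.058 without the outlying pairs, -0.045 in index set 2 alone, -0.15 with the offset and -0.043 to 0.041 with 1 pair left out.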
